A study of Mus musculus with 2 samples.

Results

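miR-210 is the miRNA most often used as a readout of low oxygen, and its hairpin gives 2 mature arms, mmu-miR-210-3p and mmu-miR-210-5p (miR-210-3p and miR-210-5p below). Both were followed here in exosomes, small membrane vesicles shed into the medium by cultured mouse BMSCs, the mesenchymal stem cells of bone marrow. The arms were taken by name from the probe annotation of a mouse miRNA array and make up 2 of its 1881 miRNAs. miR-210-3p is among the 180 miRNAs measured on both arrays, and miR-210-5p is not. After quantile normalization, miR-210-3p was 39.4-fold higher in exosomes of hypoxic BMSCs than in those of normoxic BMSCs, with 1 array each. That was the largest increase among the 180. Without normalization its 2 probes gave 30.2-fold and 32.6-fold differences. miR-210-5p was not detected on either array.

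A miRNA gene is transcribed into a hairpin, which is cut to a short duplex of a 5p and a 3p arm. One strand is usually loaded into an Argonaute protein and the other degraded. The loaded strand finds target transcripts mainly through its seed, bases 2 to 8. Transcription of the miR-210 gene is driven by hypoxia-inducible factor (HIF) in most cell types studied, and miR-210-3p is known to repress transcripts for mitochondrial iron-sulfur cluster assembly and respiration.

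Both groups were purchased C57BL/6 mouse BMSCs grown for 72 h in medium whose bovine serum had been depleted of exosomes. The groups were exosomes of cells kept in normoxia and exosomes of cells kept in a hypoxic chamber at 0.2% oxygen. Exosomes had been enriched by centrifugation, filtration and a precipitation reagent. Each group is 1 array with no biological replicate, so the errors given below are over the spots of 1 array, no test between conditions was possible, and a difference between cultures cannot be told apart from one between conditions. The RNA is that recovered from exosomes, and the number of vesicles and the miRNA content of each cannot be told apart either. The arrays shared a slide and a scan, and position on the slide cannot be told apart from condition.

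The arms are shown first because each probe is annotated to 1 arm and the arms carry different seeds. The sequences are those of RefSeq for build GRCm38.p6, 5′ to 3′, with the seed in capitals.
miR-210-3p: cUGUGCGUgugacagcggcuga
miR-210-5p: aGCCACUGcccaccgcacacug

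Both arms are 22 bases long. miR-210-3p lies at chr7:141221407-141221428 and miR-210-5p at chr7:141221445-141221466, both on the minus strand of chromosome 7. The files name an older mouse build for the array design, and none of its coordinates are used. In gene order, the annotated neighbours are Lrrc56, Lmntd2 and Rassf7 on one side and Gm51460, Phrf1 and Irf7 on the other. The nearest annotated miRNA genes are Mir7063 and Mir7062, 29 and 80 genes away, so the gene has no miRNA cluster mates in this neighbourhood. Neither seed recurs in any other of the 1679 mature mouse sequences in the table, which cover 1608 of the 1881 miRNAs on the array, and the signal of each arm is therefore the whole signal of its seed among them.

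The hairpin is printed to show how the arms sit against each other. It is the 110-base Mir210 precursor at chr7:141221384-141221493, minus strand, with the 5p arm and then the 3p arm in capitals.
Mir210: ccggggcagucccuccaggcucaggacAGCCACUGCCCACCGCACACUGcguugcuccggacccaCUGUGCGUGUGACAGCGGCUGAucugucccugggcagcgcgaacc

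The 5p arm covers bases 28 to 49 of the hairpin and the 3p arm bases 66 to 87, with a loop of 16 bases between them. RNAfold predicted a minimum free energy of -48 kcal/mol and 35 base pairs, of which 16 joined the arms. In that prediction 6 of the 7 seed bases of miR-210-3p were paired. G and C make up 63.6% of miR-210-3p and 68.2% of miR-210-5p, against a median of 52.2% over the array's miRNAs with a sequence.

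Each arm had 2 probes with 15 spots per probe on each array. Values are the background-subtracted signal of the scanner software, in linear intensity units. On the first probe of miR-210-3p, the normoxia spots ran from 158 to 198 with a median of 173, and the hypoxia spots from 3961 to 6332 with a median of 5348. On the second probe, the normoxia spots ran from 93.4 to 127 with a median of 112, and the hypoxia spots from 3085 to 4182 with a median of 3624. The spots of the conditions did not overlap on either probe. The share of all probes whose spots separate in this way was not counted. Every spot of miR-210-3p was called well above background by the software on both arrays. None was saturated or marked as an outlier.

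**Figure D1:**
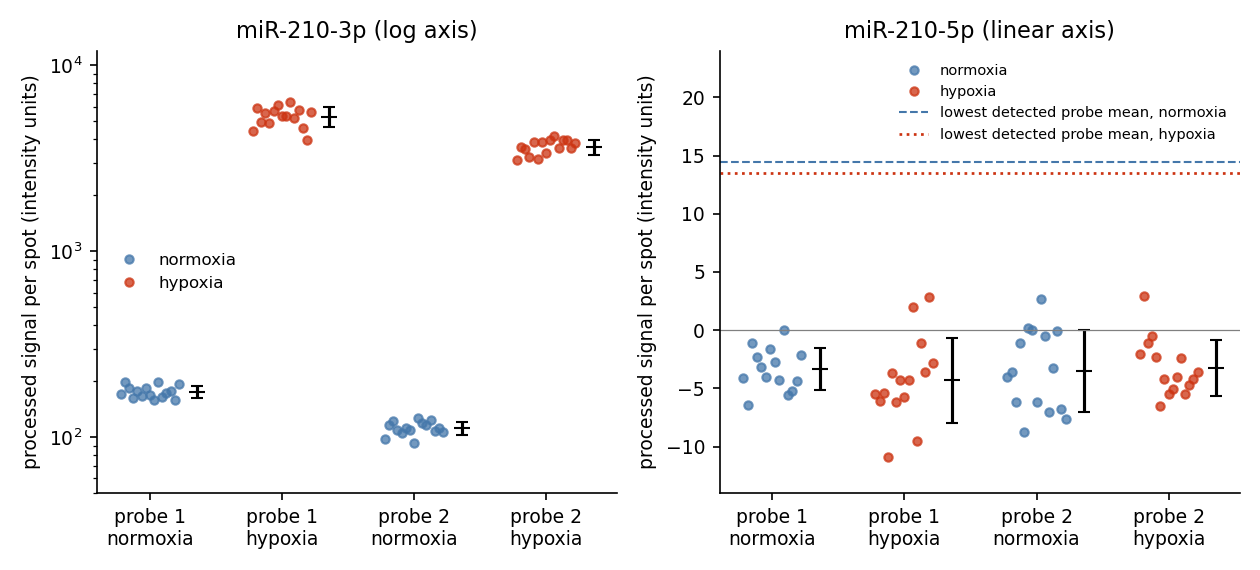
Processed signal of each spot for the 2 probes of miR-210-3p (left, log axis) and of miR-210-5p (right, linear axis), without outlier spots; blue points are normoxia, red points hypoxia, and black marks give the mean and 1 SD over spots. The hypoxia spots of miR-210-3p all lie at 3085 or above and the normoxia spots at 198 or below, while all spots of miR-210-5p lie below the lowest mean of a detected probe on their array (dashed and dotted lines at 14.5 and 13.5).

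The first probe averaged 176 ± 13.4 in normoxia against 5312 ± 649 under hypoxia (SD, n = 15 spots each). The second averaged 112 ± 9.33 and 3652 ± 337 (SD, n = 15 spots each). Before any normalization between arrays, these are 30.2-fold and 32.6-fold differences, so the 2 probes gave nearly the same ratio although their own brightness differed. Even the dimmest hypoxia spot was 19.96-fold and 24.4-fold brighter than the brightest normoxia spot of the same probe.

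The difference was also read position by position, because a spot of a probe sits at the same place on both arrays. Over the 15 positions of the first probe, the log2 difference without normalization ran from 4.65 to 5.10, with a median of 4.97 and an SD of 0.16. Over the 15 positions of the second probe, it ran from 4.81 to 5.21, with a median of 5.00 and an SD of 0.13. When the array was divided into 4 blocks by row and column, the means lay between 4.75 and 5.12 over both probes. No region of the array carried the difference alone.

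The unsubtracted pixels changed in the same direction. The median pixel signal of the first probe was 216 in normoxia and 5515 in hypoxia, over a local background of 20 on both arrays. That of the second probe was 152 and 3802.5, also over a background of 20. The software's own summed signal for miR-210-3p was 61.0 with an error of 4.53 in normoxia and 1901 with an error of 138 in hypoxia.

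After quantile normalization of all 4415 probes between the arrays, the log2 difference of miR-210-3p, hypoxia minus normoxia, was 5.30 ± 0.035 (SE over spots; SD 0.14), a 39.4-fold increase. The first probe gave 5.25 ± 0.054 and the second 5.35 ± 0.046. Odd-numbered and even-numbered spots taken apart gave 5.26 and 5.32. The difference of miR-210-3p was the largest of the 180 miRNAs detected on both arrays, whose median log2 difference was 0.17 with quartiles at -0.41 and 0.71. Relative to that median it was 5.13. Of the 180, 33 (18.3%) rose by 2-fold or more in hypoxia and 18 (10.0%) were lower by as much. That balance turned round under other scalings, with 20 higher and 36 lower without normalization and 25 higher and 30 lower with the hybridization spike-ins set equal.

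**Figure D2:**
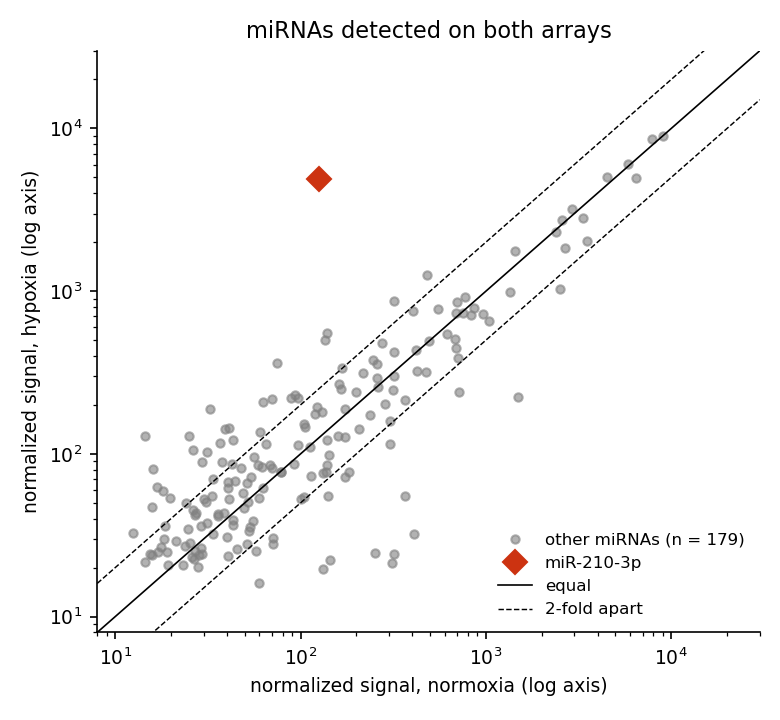
Quantile-normalized signal in hypoxia against that in normoxia for the 180 miRNAs detected on both arrays, on log axes, with a line for equal signal and dashed lines for 2-fold differences. miR-210-3p, the red diamond, stands 39.4-fold above the line of equal signal, and the next miRNA, miR-378a-3p, lies 2.15 log2 units nearer to it.

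The 3 miRNAs nearest to miR-210-3p in log2 difference, a likeness over 2 arrays only, were miR-378a-3p at 3.15, miR-503-5p at 2.54 and miR-378b at 2.36. Each was measured by 1 probe. In normoxia their signals were 14.4, 23.0 and 16.5, beside a lowest detected probe mean of 14.5 and a signal of 144 for miR-210-3p. The gap between miR-210-3p and the closest of them was 2.15 log2 units, with spot SDs of 0.14 for miR-210-3p and 0.32 for miR-378a-3p, which describe the arrays and not the spread between cultures.

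The size of the difference depended on the scaling. Without normalization it was 4.97, when the labelling spike-ins were set equal it was 5.45, and when the 75th percentile of all probes was set equal it was 5.90. The lowest value, 4.72, came from normexp background correction, which adds an offset and draws dim signals together. miR-210-3p had the largest difference without normalization, a place that 1 factor per array cannot change. It also had it with normexp, with medians over spots, with outlier spots kept, with the brightest probe of each miRNA, with a stricter or no filter on dim probes and with the software's summed signal. The spike-in RNAs detected on both arrays were lower on the hypoxia array without normalization, with log2 differences of -0.44 and -0.51 for dmr_285 and dmr_31a and of -0.09 and -0.16 for dmr_3 and dmr_6. The software put the normoxia array in its quality range and marked the hypoxia array for evaluation, with its median spot CV and its labelling spike-in signal out of range. That median spot CV was 9.68% in normoxia and 15.8% in hypoxia, and which probes it covers was not examined. The spots of miR-210-3p had CVs of 7.61% and 8.34% in normoxia and of 12.2% and 9.23% under hypoxia.

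**Figure D3:**
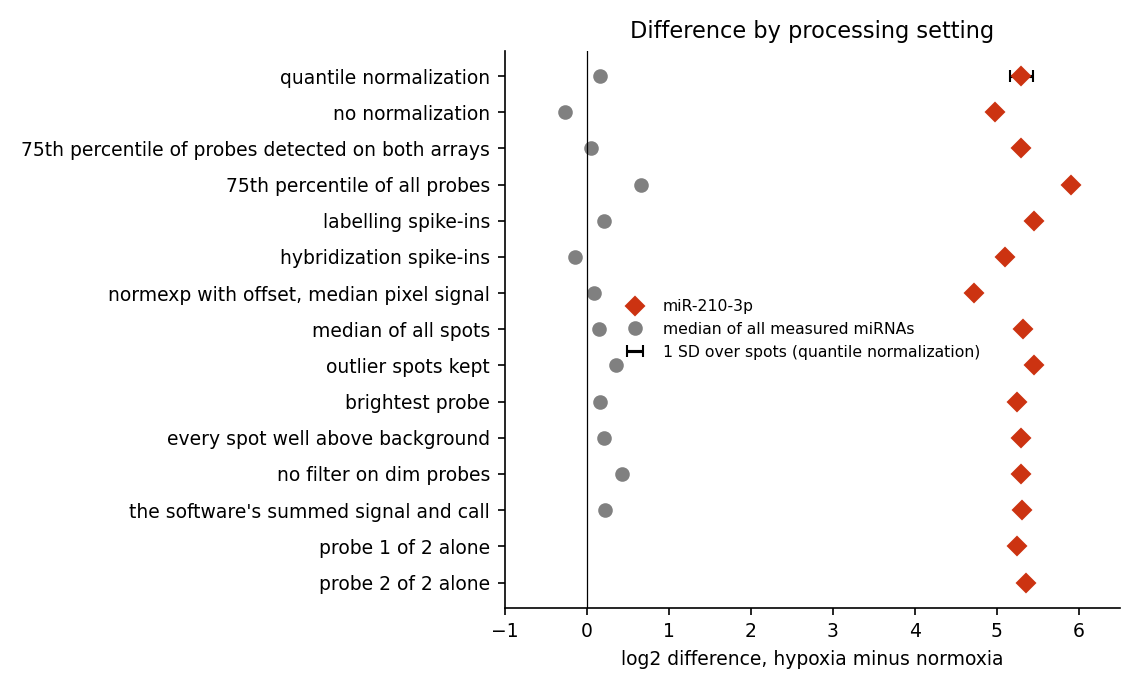
Log2 difference, hypoxia minus normoxia, of miR-210-3p (red diamonds) under each processing setting, beside the median of all measured miRNAs (grey circles, where all were recomputed); the bar on the first row is 1 SD over spots. The diamonds lie between 4.72 and 5.90 and the medians between -0.27 and 0.66.

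Rank and share place miR-210-3p within the signal of each array. They are descriptions, since probes differ in brightness per molecule. The mean signal over its 2 probes was 144 in normoxia and 4482 in hypoxia, which made it the 75th brightest of 1881 miRNAs in normoxia and the 5th brightest in hypoxia. In normoxia it stood between miR-6948-3p at 147.8 and miR-3960 at 139.9. In hypoxia it stood between miR-29a-3p, a repressor of collagen transcripts, at 4502 and miR-92a-3p, a member of the miR-17-92 cluster, at 4232. The log2 differences of these neighbours were -0.04 for miR-6948-3p, 0.56 for miR-3960, 0.08 for miR-29a-3p and -0.32 for miR-92a-3p. All of them changed by less than 2-fold. Among the 180 miRNAs measured on both arrays, the rank of miR-210-3p rose by 69 places, the 3rd largest rise. miR-378a-3p, for one, went from rank 200 of all 1881 in normoxia to rank 77 in hypoxia.

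**Figure D4:**
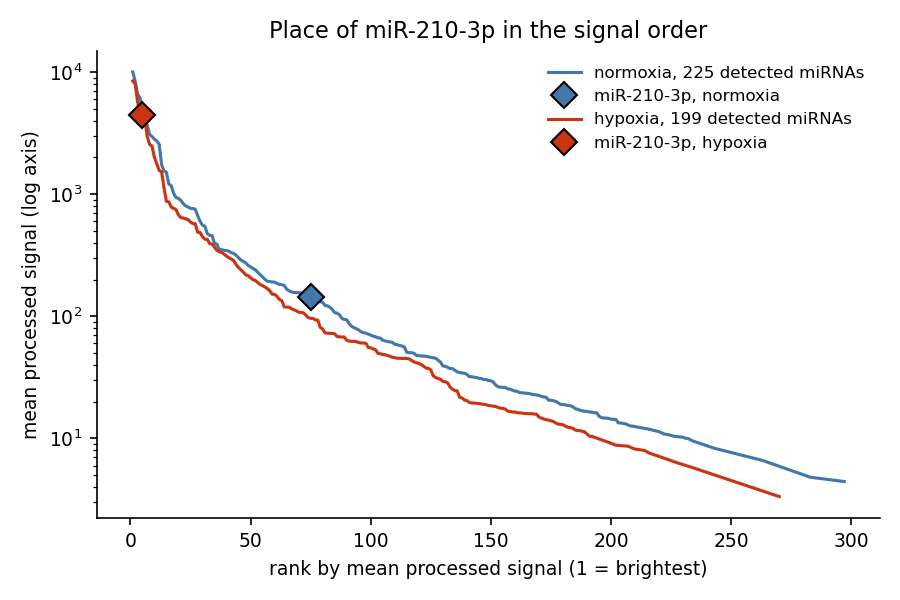
Mean processed signal (log axis) against rank among all 1881 miRNAs for the 225 miRNAs detected in normoxia (blue line) and the 199 detected in hypoxia (red line). The diamonds mark miR-210-3p, at rank 75 with a signal of 144 in normoxia and at rank 5 with a signal of 4482 in hypoxia.

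miR-210-3p held 0.152% of the summed miRNA signal in normoxia and 5.87% in hypoxia, a 38.6-fold change of share. The summed signal itself fell from 94530 to 76415. The gain of 5.71 percentage points was the largest of all miRNAs. The next gains were 2.11 points for miR-130a-3p, from 8.92% to 11.0%, and 1.01 points for miR-22-3p, from 6.52% to 7.54%, both already among the brightest in normoxia. After quantile normalization the share of miR-210-3p was 0.147% in normoxia and 5.74% in hypoxia, and its ranks were 76 and 6. With normexp the shares were 0.0981% and 2.38%.

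miR-210-5p, the partner arm, had no measurable signal. On its first probe, 14 normoxia spots without outlier flags ran from -6.46 to 0.049 with a median of -3.60, and 15 hypoxia spots from -10.9 to 2.85 with a median of -4.32. On its second probe, the normoxia spots ran from -8.79 to 2.68 with a median of -3.55, and the hypoxia spots from -6.49 to 2.90 with a median of -4.05. Among all 4415 probe means these probes stood at percentiles 2.79 and 2.38 in normoxia and 1.61 and 7.86 in hypoxia. The spots of the conditions overlapped on both probes, and 0 of them were called well above background on either array. Values below 0 mean that a spot was dimmer than the background the software subtracted.

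The means of the first probe were -3.36 ± 1.82 in normoxia (SD, n = 14 spots) and -4.29 ± 3.65 in hypoxia (SD, n = 15 spots), and those of the second -3.47 ± 3.52 and -3.25 ± 2.41 (SD, n = 15 spots each). The negative control spots averaged 4.28 ± 3.10 in normoxia (SD, n = 964 spots) and, under hypoxia, 4.28 ± 3.52 (SD, n = 979 spots), so both probes of miR-210-5p lay below them. The dimmest probe mean that was detected was 14.5 in normoxia and 13.5 in hypoxia. No fold is given for miR-210-5p, because it was not detected on either array. Before subtraction, the median pixel signals of its first and second probe were 36 and 37 in normoxia and 36 and 39.5 in hypoxia. The local background was 19 to 20, so these signals lay below the background that the software subtracted but not below the local one. Scaling does not touch the calls of the software. With outlier spots kept, and by the software's own call per miRNA, miR-210-5p was likewise detected on 0 arrays. These values give no level for miR-210-5p below the range that the array can detect, and whether its probes bind the arm was not tested.

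An undetected partner arm was common on these arrays. Of the 723 hairpins with both arms on the array, both arms were detected for 14 in normoxia and 12 in hypoxia, and 1 arm only for 133 and 119. In hypoxia, 5 of these hairpins had a brighter arm at or above the level of miR-210-3p, those of miR-130a, miR-21a, miR-22, miR-29a and miR-210, and the partner arm was detected for 1 of them, miR-21a-3p at 21.7. The partner arms of the others had mean signals of 0.784 for miR-130a-5p, 3.65 for miR-22-5p, 2.21 for miR-29a-5p and -3.77 for miR-210-5p. In normoxia, 52 hairpins had a brighter arm at or above the level of miR-210-3p, and the partner arm was detected for 7.

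Hairpins with both arms measured show how far partner arms can move apart on these arrays. There were 10 of them, and the arms of 6 changed in the same direction. The gap between the log2 differences of the arms had a median of 0.98 and reached 1.74 for miR-34c, and in 0 of the 10 were both arms at least 2-fold higher in hypoxia. miR-210 could not be placed among them, since a difference for its 5p arm was not measured.

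Similar sequences were checked because a probe can bind a near match. By whole sequence the closest array miRNAs to miR-210-3p were miR-698-5p and miR-7672-5p, each 7 edits away and not detected on either array. miR-7672-5p also shared the longest run, 9 bases. The most bases shared at the 3′ end were 5, with miR-16-1-3p, also not detected. For miR-210-5p, miR-6936-5p shared a run of 10 bases and was not detected, while miR-324-3p shared a run of 9 bases and was detected at 103 in normoxia and 196 in hypoxia, yet the probes of miR-210-5p gave no signal. The probe sequences themselves were not used here.

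The base composition of miR-210-3p was set beside that of the other measured miRNAs. The 31 other measured miRNAs whose GC content was at least that of miR-210-3p had log2 differences from -2.76 to 1.66 with a median of -0.21, with 5 of them (16.1%) 2-fold or more above and 8 (25.8%) as far below their normoxia signal, beside 18.3% and 10.0% of all measured miRNAs. Across the 160 other measured miRNAs with a sequence, Pearson's r between GC content and log2 difference was -0.10, given as a description because all points share the same 2 arrays. The part of base composition in the difference of miR-210-3p was not tested.

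Other miRNAs described as raised in low oxygen had differences far smaller than that of miR-210-3p. Of 18 such miRNAs, 13 were detected in normoxia, 11 in hypoxia and 11 on both arrays, and of these last 11, 1 was at least 2-fold higher in hypoxia, against 18.3% of all measured miRNAs, and 0 were lower by that much. Their median log2 difference was 0.21, beside 0.17 over all measured miRNAs, and was -0.050 without normalization, 0.43 with the labelling spike-ins and 0.88 with the 75th percentile of all probes, where the median over all measured was -0.27, 0.21 and 0.66. The 1 member past 2-fold was miR-322-5p, the mouse counterpart of human miR-424-5p, at 1.07 ± 0.069 (SE over spots of 1 probe), with signals of 25.4 in normoxia and 37.5 in hypoxia. No member reached 2-fold without normalization, with the 75th percentile of doubly detected probes set equal, with the hybridization spike-ins or with normexp. Of all 180 measured miRNAs, 20, 29, 25 and 11 did in these settings, in the same order. With the 75th percentile of all probes, 3 members did, beside 58 of the 180.

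Quantile normalization gives a probe with the same rank on both arrays the same value on both. The probes of miR-21a-5p, an abundant miRNA of stromal cells, had ranks 1 and 16 on both arrays, so its log2 difference was 0 by construction. Its signals were 9993 and 8011, and without normalization its mean log2 difference over both probes was -0.37. Of the other bright members, miR-130a-3p stood at 0.11 and, without normalization, at -0.021. miR-24-3p stood at -0.24 with signals of 3683 and 2553, and at -0.53 without normalization. miR-27a-3p stood at 0.30 with signals of 3081 and 2979, and at -0.032 without normalization. miR-26b-5p and miR-103-3p were detected in normoxia only, and 5 members, among them miR-155-5p and the miR-181 arms, on neither array.

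**Figure D5:**
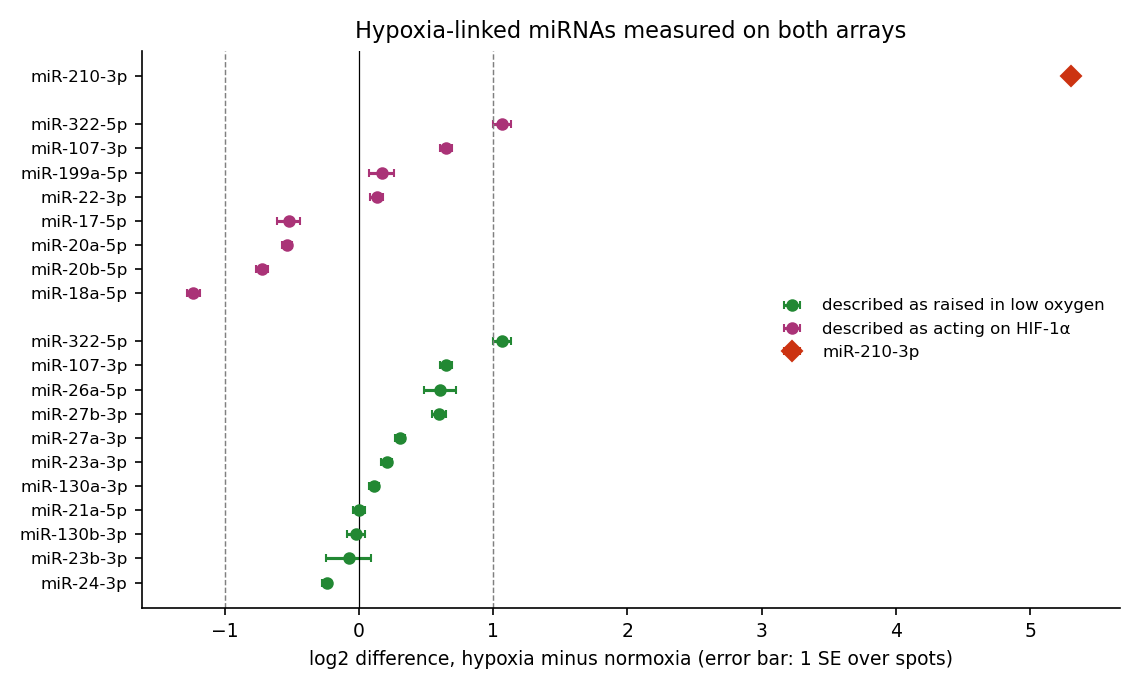
Log2 difference, hypoxia minus normoxia, of the measured miRNAs described as raised in low oxygen (green) or as acting on HIF-1α or its regulators (purple), with miR-210-3p (red diamond); error bars are 1 SE over spots and dashed lines mark 2-fold. Apart from miR-210-3p at 5.30, the highest is miR-322-5p at 1.07 and the lowest miR-18a-5p at -1.23.

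Another list held miRNAs described as acting on HIF-1α or its regulators. Of 12, 8 were measured on both arrays, with 1 at least 2-fold higher, again miR-322-5p, and 1 at least 2-fold lower, miR-18a-5p of the miR-17-92 cluster, at -1.23 ± 0.050 (SE over spots) with signals of 190 and 60.4. Over all measured miRNAs 18.3% were higher and 10.0% lower by that much. Their median log2 difference was -0.20, which became 0.28 when the 75th percentile of all probes was set equal, 0.040 with outlier spots kept and 0.34 without a filter on dim probes. Members of the miR-17 family had values of -0.52 for miR-17-5p, -0.54 for miR-20a-5p and -0.72 for miR-20b-5p, and miR-22-3p one of 0.13. The lists share miR-322-5p, miR-107-3p and miR-155-5p, so they are not separate sets.

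Most listed markers of the labelled cell type were detected in both exosome samples. Of 8 miRNAs typical of mesenchymal cells, 7 were detected on both arrays and miR-145a-5p on neither, with a summed signal of 21687 in normoxia and 18739 in hypoxia. Most of that sum came from miR-21a-5p, miR-22-3p and miR-29a-3p. Their signals were 9993, 6165 and 5054 in normoxia and 8011, 5758 and 4502 in hypoxia. Far dimmer, in normoxia and hypoxia, were miR-199a-3p at 341 and 286, miR-143-3p at 47.1 and 49.7 and miR-199a-5p at 24.8 and 18.9. Of the 7 detected, 1 was at least 2-fold higher and 0 were lower by as much, beside 18.3% and 10.0% of all measured miRNAs. It was miR-214-3p, at a log2 difference of 1.20 ± 0.091 after quantile normalization (SE over spots of 1 probe). Its signals, means over all its probes without normalization, were 62.2 in normoxia and 113 in hypoxia. Of 7 blood cell miRNAs, 3 were detected in normoxia and 1 in hypoxia, with a summed signal of 378 and 24.6, of which the red cell miRNA miR-451a made up 331 and 19.2. The liver miRNA miR-122-5p was detected in normoxia only, at 46.5 against 4.74 in hypoxia. The 6 epithelial and 2 neuronal miRNAs were detected on neither array, and of 3 muscle miRNAs 1, miR-206-3p, was detected on both. The blood and liver signals were lower in hypoxia where miR-210-3p was higher, and their part in its difference was not tested.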

How the data were processed

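Each of 2 Agilent mouse miRNA arrays (1 colour, Cy3) measured exosome RNA of 1 condition. Per the file headers, Feature Extraction 11.5.1.1 had turned the scans into spot values for the authors. The deposited intensity values are its processed signal per spot, with background and spatial trend subtracted and no scaling between arrays. The deposited value table held the same numbers. The study names Agilent's miRNA labelling kit, while the labels describe reverse transcription from a DNA primer. That conflict was not settled.

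Outlier spots (4 flags) were removed, the remaining spots averaged per probe, and the 4415 probe means quantile-normalized between arrays. The study names quantile normalization and GeneSpring GX, while the removal of outliers and the averaging were chosen here. A probe was detected if the software called over 50% of its spots well above background. A miRNA's log2 difference is the mean over probes detected on both arrays. A miRNA's signal, rank and share use the means of all its probes without normalization, the share over miRNAs with a signal above 0. The SE was propagated from the spots. Calls are 2-fold differences without a test. The number of arrays limits the precision. Well above background were 9.96% of 56430 miRNA spots in normoxia and 8.59% in hypoxia.

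Named were both arms, members of the lists and marker lists at least 2-fold apart, up to 4 of the brightest others per hypoxia list, the 3 miRNAs of nearest log2 difference, rank neighbours, miRNAs with a shared seed and the spike-ins. miRNAs named for their partner arm, their sequence or their gain of share, and further list members, were added after their values were seen. The arms and lists were chosen with earlier results of these data known. Python 3.11.15, numpy 2.4.6, pandas 2.3.3, ViennaRNA 2.7.2 and, for normexp with an offset of 50, limma 3.58.1 in R 4.3.3 were used. The averaging and scaling steps were tested on simulated data.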

Additional observations from a re-analysis of the deposited data

How the results depend on the processing

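The log2 difference of miR-210-3p, 5.30, ranged from 4.72 to 5.90 over 14 alternative settings and kept its direction in each. It was 4.97 without normalization, 5.90 with the 75th percentile of all probes set equal, 5.45 with the labelling spike-ins, 5.10 with the hybridization spike-ins, 4.72 with normexp and 5.45 with outlier spots kept. miR-210-5p was detected on 0 arrays with outlier spots kept and by the software's own call, and scaling cannot change a detection call. The rank of miR-210-3p in normoxia, 75, became 92 with outlier spots kept, and in hypoxia it ran from 4 to 6. Its share in normoxia, 0.152%, was 0.0981% with normexp, 0.128% with outlier spots kept and 0.125% from the brightest probe alone, and its share in hypoxia, 5.87%, was 2.38% with normexp and 4.63% from the brightest probe. A single scaling factor leaves rank and share as they are. Quantile normalization before rank and share was added after the data were seen.

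The count of miRNAs at least 2-fold higher, 33, was 20 without normalization, 58 with the 75th percentile of all probes and 11 with normexp. The count at least 2-fold lower, 18, was 36, 10 and 11 in the same settings, 30 with the hybridization spike-ins and 9 where a probe needed all its spots above background. The median of all measured miRNAs, 0.17, turned to -0.27 without normalization and -0.14 with the hybridization spike-ins. The median of miRNAs described as raised in low oxygen, 0.21, was -0.050 without normalization, 0.88 with the 75th percentile of all probes, 0.43 with the labelling spike-ins and 0 from the brightest probe. That of miRNAs acting on HIF-1α, -0.20, was -0.64 without normalization, -0.52 with the hybridization spike-ins, 0.28 with the 75th percentile of all probes, 0.040 with outlier spots kept and 0.34 without a filter on dim probes. For changes without a named reason, the cause was not tested. No paired analysis was possible because there is a single array per condition. Leaving out a replicate was not possible for the same reason.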
